A study of Mus musculus with 9 samples.

Results

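The genes followed here act in inflammatory cell death and were measured in mouse jejunum on day 3 after abdominal irradiation. They are the gasdermins Gsdmd, Gsdmc2, Gsdmc3 and Gsdmc4, the inflammatory caspases Casp1 and Casp4, the sensor Nlrp6, the cytokine Il18, and the necroptosis genes Ripk3 and Mlkl. The 10 genes were chosen by name, with earlier results of these data known. All 10 are among the 31685 genes of the FPKM table (fragments per kilobase of exon and per unit of sequencing depth). The 9 libraries were 3 each from wild-type C57BL/6J mice without treatment (control), mice whose abdomen received X-rays at 12 Gy (total abdominal irradiation, TAI), and mice that received this dose and 500 mg/kg of IVIg (TAI/IVIg). IVIg, a human immunoglobulin G preparation, was injected intravenously within an hour of irradiation and again every 3 days, and the methods describe male mice and saline injections for the TAI mice. Each library was taken as 1 mouse, nothing says what their shared replicate numbers stand for, and p-values measure the spread between these libraries.

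Pyroptosis is a lytic form of cell death. Sensors such as NLRP6 assemble an inflammasome with the adaptor ASC, the product of Pycard, and this activates caspase-1, while caspase-4 (also called caspase-11 in mice) binds bacterial lipopolysaccharide directly. Caspase-1 matures IL-18 and, like caspase-4, cuts gasdermin D, whose freed N-terminal part forms pores in the membrane. Necroptosis reaches membrane rupture by another route, in which the kinase RIPK3 phosphorylates the pore-forming pseudokinase MLKL. In the gut, epithelial cells are a main source of IL-18, and NLRP6 is known as a sensor of the epithelium. Because both the enzymes and their substrates are switched on by cleavage or phosphorylation, the RNA levels below measure supply and not activation.

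The recovered depth was 16284386 to 18244535 reads per library. The labels name the tissue as jejunal epithelium, while the methods describe RNA from frozen jejunal tissue. The epithelial marker Epcam was at 869.7 to 1044 FPKM in control mice, 1217 to 1512 in TAI mice and 1155 to 1748 in TAI/IVIg mice. Of 9 epithelial markers none rose and 4 fell in TAI, and 2 rose and 4 fell in TAI/IVIg, and the keratin gene Krt19 was at 668.1 to 765.3, 104.7 to 301.9 and 53.45 to 201.4 FPKM in the same order, so that ratios to Epcam below depend on the marker chosen. The tissue also carried RNA of other cells, with the muscle gene Acta2 at 44.2 to 304.5 FPKM and the plasma cell gene Igha at 221.3 to 531.4 over the 9 mice. The B cell gene Cd79a was highest in control mouse 3 (142 FPKM), TAI mouse 3 (29.87) and TAI/IVIg mouse 2 (31.43), against 18.48 in control mouse 1 and 0.801 to 1.476 in the other mice. In bulk RNA, fewer cells of a type and less RNA per cell cannot be told apart.

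Levels were compared as log2(FPKM + 1), a scale that understates the change of low genes, with limma and Benjamini-Hochberg adjustment over the 13056 genes that reached an FPKM of 1 in at least 3 mice. A gene was called at an adjusted p under 0.05. Of the 10 members 7 were tested, since Gsdmc2, Gsdmc3 and Gsdmc4 did not reach that level in 3 mice. In TAI against control, 1 member rose (Gsdmd) and 3 fell (Nlrp6, Il18 and Casp1), where 8.81% of all tested genes were called higher and 26.1% lower. In TAI/IVIg against control, 1 rose (Gsdmd) and 4 fell (those 3 and Mlkl), against backgrounds of 9.06% and 37.4%. In TAI/IVIg against TAI, none of the members was called in either direction, and the share of all genes called was 0% higher and 0% lower. The comparisons against control share the control mice, so their values are given side by side and not as separate evidence.

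**Figure D1:**
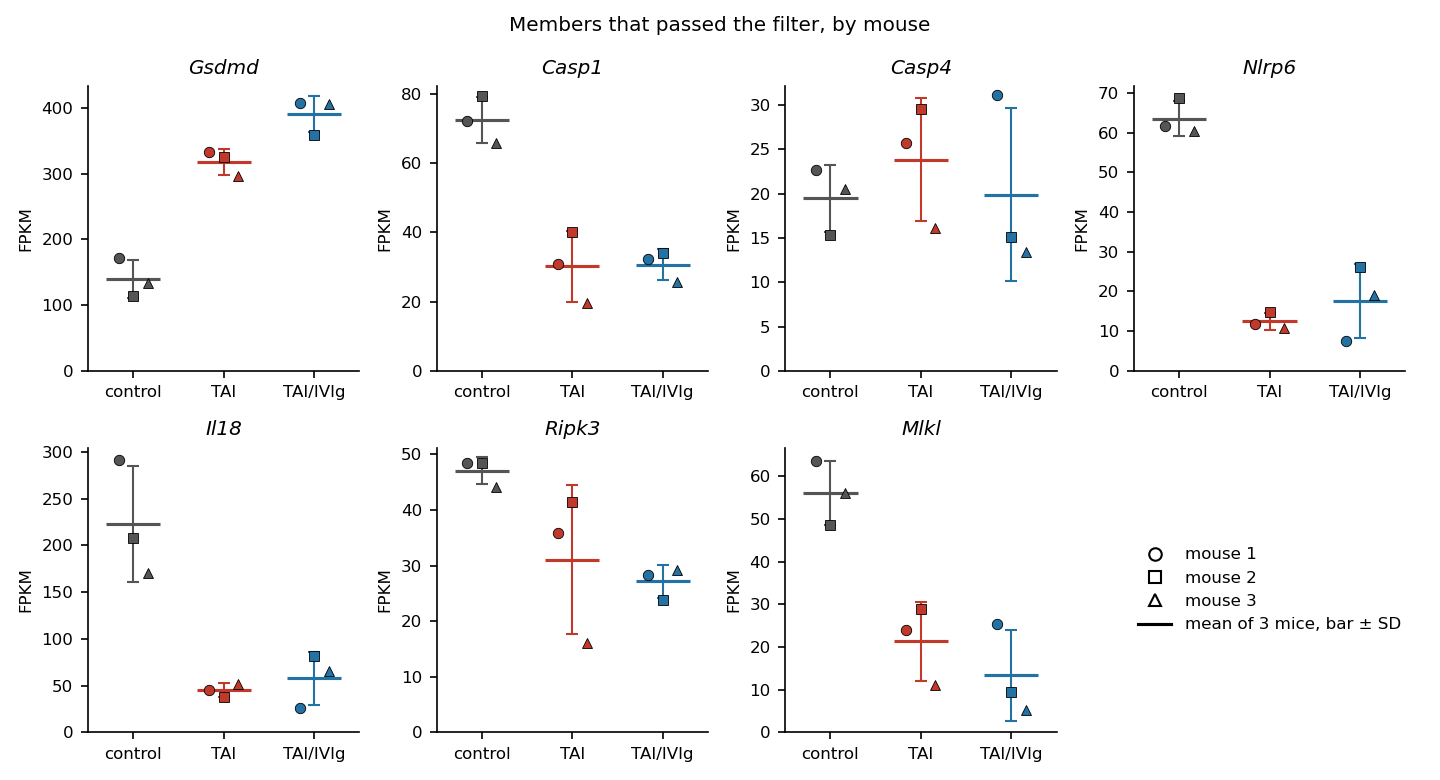
FPKM (linear axes from 0) of the 7 members that passed the filter, a point per mouse, with the mean of 3 mice as a line and ± SD as a bar. Gsdmd sits above the control mice in all 6 irradiated mice, while Casp1, Nlrp6, Il18 and Mlkl sit below them in all 6.

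Gsdmd, the executioner of pyroptosis (chr15:75862327-75867408, plus strand, GRCm38), was the one member that rose. Its level was 171.5, 114.5 and 133.8 FPKM in control mice 1 to 3, 332.1, 324.4 and 295.6 in TAI mice, and 406.9, 358.4 and 405.2 in TAI/IVIg mice. All 3 groups were separate, in the order control, TAI, TAI/IVIg. The counts behind these levels ran from 4811 to 17394 recovered reads. The fitted rise in TAI was 1.19 on the log2 scale (SE 0.17, 2.29-fold, limma adjusted p = 0.00168), and in TAI/IVIg it was 1.49 (SE 0.17, 2.81-fold, limma adjusted p = 0.000455). TAI/IVIg mice exceeded TAI mice by 0.30 on the log2 scale, with a 95% interval from -0.08 to 0.67 and a limma adjusted p of 0.452, so this step was not called although the mice did not overlap. Among all tested genes, 3.09% were higher in every TAI/IVIg mouse than in every TAI mouse and 16.1% lower in every one, and of the 7 tested members Gsdmd alone was separate. Measured against Epcam in the same library, Gsdmd was 0.11 to 0.1655 times its level in control, 0.1955 to 0.267 times in TAI and 0.233 to 0.310 times in TAI/IVIg mice. Mature enterocyte genes, 8 in all, summed to 9886 to 15743 FPKM in control, 20855 to 36306 in TAI and 31467 to 34555 in TAI/IVIg. Fabp2 held the largest part, with means of 9030, 19955 and 20624 FPKM in the same order. Sis, also on the list, was at 257.3 to 510.2 FPKM in control, 128.6 to 196.1 in TAI and 103.5 to 335.2 in TAI/IVIg. Among TAI mice the sum was highest in mouse 3, where Gsdmd was lowest. Among control mice, and among TAI/IVIg mice, it was highest in mouse 1, where Gsdmd was also highest. Of those 8 genes 6 rose in each comparison with control, and their part in the Gsdmd result was not tested.

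The segment of Gsdmd that caspases cut is shown because the protein is inert until it is cleaved there. The capitals mark codon 276 of 487, the aspartate after which the chain is cut, at chr15:75866155-75866318 on the plus strand of GRCm38, a span that joins exons 7 and 8 of 11 across an intron (GENCODE M21 transcript).
Gsdmd: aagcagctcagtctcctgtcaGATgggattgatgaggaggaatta

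The closest patterns to Gsdmd over the 9 mice belonged to the potassium channel gene Kcnk5 and the sphingosine kinase gene Sphk1. Their centred log2 levels differed from those of Gsdmd by a root mean square of 0.087 and 0.093, out of 13055 other genes, as a description with no test. The levels are log2(FPKM + 1), which understates the change of low genes such as Sphk1, and this holds for each likeness value below. Kcnk5 stood at 10.3 to 13.9 FPKM in control, 30.6 to 31.8 in TAI and 34.7 to 38.2 in TAI/IVIg mice, and Sphk1 at 1.65 to 2.47, 5.22 to 7.24 and 6.98 to 8.09. No other member came near, the nearest being Casp4 at a distance of 0.715.

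The gasdermin C genes were lower in irradiated mice, in contrast to Gsdmd, at levels of at most 1.54 FPKM. Gsdmc2, Gsdmc3 and Gsdmc4 are adjacent copies on the minus strand of chromosome 15 (63824346-63845177, 63857724-63878558 and 63891264-63912297, GRCm38), and gasdermin C is known in the mouse gut for its induction by type 2 cytokines. Gsdmc2 gave 21, 63 and 40 reads in control mice, 3, 9 and 2 in TAI mice, and 0, 2 and 2 in TAI/IVIg mice. Gsdmc4 gave 35, 47 and 51, then 2, 3 and 1, then 2, 0 and 1. Gsdmc3 gave 0, 18 and 11 reads in control mice, 0 in every TAI mouse, and 0, 0 and 1 in TAI/IVIg mice. Control mice were above all irradiated mice for Gsdmc2 and Gsdmc4, and control mouse 1 was at 0 for Gsdmc3. Summed over mice and per recovered read, Gsdmc2 was 8.74 times higher in control than in TAI (95% counting interval 5.02 to 16.45) and Gsdmc4 21.9 times (9.79 to 60.7). Against TAI/IVIg mice, the ratio was 30.6 for Gsdmc2 (11.7 to 114.2) and 43.8 for Gsdmc4 (14.7 to 215.1). Gsdmc3 had a count of 0 in TAI, and with 3 reads over the group in its place the level would be 9.54-fold lower than in control. The exact counting interval of the observed ratio starts at 7.27. Against TAI/IVIg the ratio of control was 28.7 for Gsdmc3 (4.75 to 1170). These intervals cover counting error only, with no spread between mice. With no filter on low genes, limma called Gsdmc2 and Gsdmc4 lower in TAI (adjusted p = 0.0196 and 0.00103) and in TAI/IVIg (adjusted p = 0.00831 and 0.000645), but not Gsdmc3 (adjusted p = 0.134 and 0.127). Between TAI and TAI/IVIg mice the 3 copies held 20 and 8 reads in all. The ratio of TAI to TAI/IVIg was 3.51 for Gsdmc2 (1.10 to 14.6) and 2.00 for Gsdmc4 (0.428 to 12.4), and limma with no filter called none of the copies between these groups.

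**Figure D2:**
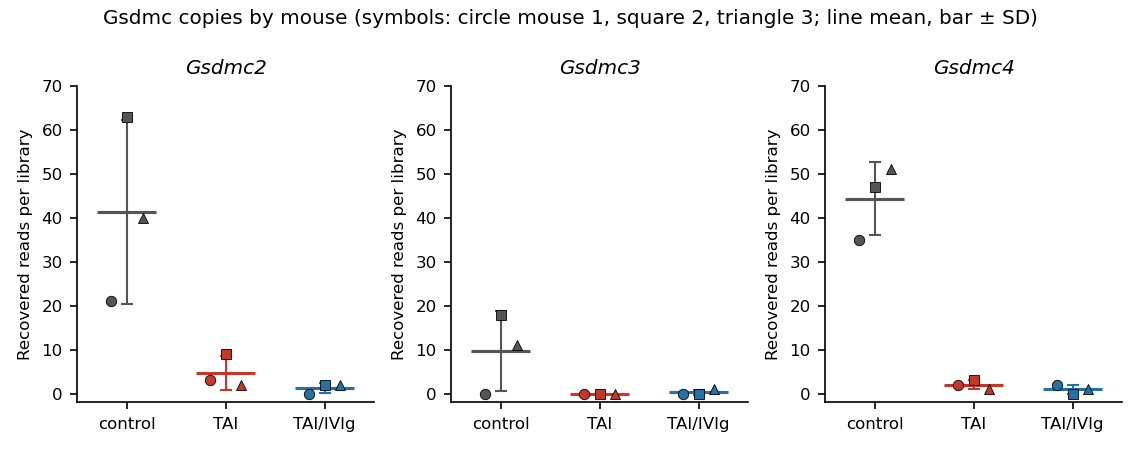
Reads recovered per library for Gsdmc2, Gsdmc3 and Gsdmc4, a point per mouse, with the mean as a line and ± SD as a bar. Irradiated mice hold 0 to 9 reads per copy, against 21 to 63 for Gsdmc2 and 35 to 51 for Gsdmc4 in control mice.

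How far the 3 copies can be told apart depends on their sequence. Their coding regions, 1440 bases each, are 97.1% identical between Gsdmc2 and Gsdmc3, 92.9% between Gsdmc2 and Gsdmc4, and 93.0% between Gsdmc3 and Gsdmc4, with identical runs of up to 317, 171 and 209 bases. A read inside such a run fits each copy of the pair, and how the authors counted such reads is not given in the sources used here, so the split between copies is uncertain. In control mice the 286 reads fell 43.4% to Gsdmc2, 10.1% to Gsdmc3 and 46.5% to Gsdmc4. The first stretch below, coding bases 1 to 60 in the first coding exon, is the same in all 3 copies (chr15:63835884-63835943, chr15:63869238-63869297 and chr15:63902871-63902930). The 3 lines after it show the stretch of 60 bases in which the copies differ most, with the 16 differing positions in capitals. It lies across exons 7 and 8 of 11, at chr15:63826884-63827775, chr15:63860314-63861195 and chr15:63893831-63894684, and reads there can separate them.
Gsdmc2, Gsdmc3 and Gsdmc4, start of the coding region: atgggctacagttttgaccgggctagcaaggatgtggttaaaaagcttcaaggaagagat
Gsdmc2: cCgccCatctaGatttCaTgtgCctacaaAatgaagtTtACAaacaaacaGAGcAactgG
Gsdmc3: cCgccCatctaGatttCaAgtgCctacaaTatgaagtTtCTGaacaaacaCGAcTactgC
Gsdmc4: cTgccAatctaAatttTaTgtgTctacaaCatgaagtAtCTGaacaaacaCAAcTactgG

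Casp1, the protease that matures IL-18 and cuts gasdermin D (chr9:5298517-5307265, plus strand), fell while its substrate Gsdmd rose. It stood at 72.2, 79.2 and 65.7 FPKM in control mice, 30.89, 39.97 and 19.52 in TAI mice, and 32.15, 34.02 and 25.57 in TAI/IVIg mice. Every irradiated mouse was below every control mouse, and the irradiated groups overlapped. The fitted fall was -1.29 in TAI (SE 0.24, 2.44-fold, limma adjusted p = 0.00475) and -1.22 in TAI/IVIg (SE 0.24, 2.33-fold, limma adjusted p = 0.00379). Between TAI/IVIg and TAI the difference was 0.07, with a 95% interval from -0.47 to 0.61. The ratio of Gsdmd to Casp1 in a library was 1.45 to 2.375 in control, 8.12 to 15.1 in TAI and 10.53 to 15.85 in TAI/IVIg mice, as FPKM. The FPKM of Casp1 implies an exon length of 3136 bases against 1497 in GENCODE M21, so its level relative to other genes is uncertain, while the same length enters the value of every mouse. Markers of macrophages and dendritic cells, which also express Casp1, summed to 222.1 to 521 FPKM in control, 167.7 to 382.5 in TAI and 196 to 366.8 in TAI/IVIg mice, and 2 of 10 were called lower in each comparison with control. Lyz2 and H2-Aa held the largest parts of the sum, at 44.37 to 213.7 and 31.88 to 158.7 FPKM in control mice. Csf1r had means of 7.90, 7.12 and 6.35 FPKM in control, TAI and TAI/IVIg mice, and Cd68 of 9.78, 4.605 and 3.908. The part of these macrophage and dendritic cell markers in the fall of Casp1 was not tested.

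Casp4, the lipopolysaccharide receptor of the non-canonical pathway, lies next to Casp1 (chr9:5308828-5336783, plus strand) and did not pass the test in any comparison. Its values were 22.7, 15.3 and 20.5 FPKM in control mice, 25.7, 29.6 and 16.1 in TAI mice, and 31.1, 15.1 and 13.4 in TAI/IVIg mice. The groups overlapped throughout, and TAI/IVIg mouse 1 held the highest value of all and mouse 3 the lowest. The difference was 0.25 in TAI against control (95% interval -0.49 to 0.99, limma adjusted p = 0.572) and -0.05 in TAI/IVIg against control (95% interval -0.79 to 0.69), the latter turning to 0.44 with library medians set equal. In TAI/IVIg against TAI it was -0.30 (95% interval -1.05 to 0.44).

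Nlrp6 (chr7:140920902-140929192, plus strand), the inflammasome sensor among the members, fell in both comparisons with control. It was at 61.6, 68.7 and 60.4 FPKM in control mice, 11.8, 14.8 and 10.8 in TAI mice, and 7.58, 26.1 and 19.1 in TAI/IVIg mice. Control mice lay far above all others, while TAI/IVIg mice lay on both sides of the TAI mice. The fall was -2.27 in TAI (SE 0.36, 4.83-fold, limma adjusted p = 0.00252) and -1.95 in TAI/IVIg (SE 0.36, 3.85-fold, limma adjusted p = 0.00301). TAI/IVIg against TAI gave 0.33, with a 95% interval from -0.48 to 1.14.

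Il18 (chr9:50554827-50581840, plus strand), the cytokine that caspase-1 matures, was the highest in control mice by mean FPKM of the members with a certain length, and fell in step with Nlrp6. Its level was 291.3, 208 and 170 FPKM in control mice, 45.1, 37.5 and 52.3 in TAI mice, and 26.05, 81.6 and 65.5 in TAI/IVIg mice. The highest irradiated mouse lay far below the lowest control mouse. The fall was -2.26 in TAI (SE 0.39, 4.80-fold, limma adjusted p = 0.00356) and -2.05 in TAI/IVIg (SE 0.39, 4.13-fold, limma adjusted p = 0.00334), and TAI/IVIg against TAI gave 0.22 (95% interval -0.66 to 1.09). Per unit of Epcam, Il18 was at 0.195 to 0.281 in control, 0.0308 to 0.0346 in TAI and 0.0149 to 0.0706 in TAI/IVIg mice. Gsdmd and Il18 changed places: the ratio of Gsdmd to Il18 was 0.551 to 0.787 in control mice, 5.66 to 8.66 in TAI mice and 4.39 to 15.6 in TAI/IVIg mice, as FPKM. Of 4 tested markers of crypt base and cycling cells 3 fell in each comparison with control, and the list summed to 23.15 to 95.2 FPKM in control, 8.40 to 11.1 in TAI and 2.71 to 7.06 in TAI/IVIg mice, most of it in control from Olfm4, Mki67 and Top2a. The stem cell marker Smoc2 stood at 4.44 to 6.71 FPKM in control, 4.51 to 6.13 in TAI and 1.41 to 5.83 in TAI/IVIg mice. Lgr5 and Ascl2 were below the filter, with means of 0.645, 0.622 and 0.543 FPKM for Lgr5 and 0.597, 0.314 and 0.145 for Ascl2 in the same order. Too few irradiated mice reached an FPKM of 1 for Mki67 and Top2a, so both genes passed the filter through the control mice. That favoured calling a fall. The part of these crypt base and cycling cell markers in the Il18 and Nlrp6 results was not tested.

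The segment of Il18 that caspase-1 cuts is given beside that of Gsdmd, since both are substrates of the protease and their RNA levels moved apart. The capitals mark codon 35 of 192, the aspartate at the end of the propeptide (chr9:50577542-50577798, plus strand, across the intron between exons 2 and 3 of 5).
Il18: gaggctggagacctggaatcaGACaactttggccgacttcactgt

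Over the 9 mice, Nlrp6 was the gene closest to Il18 out of 13055 (root mean square difference of 0.29 in centred log2 level), followed by Cnksr3 at 0.305. From the side of Nlrp6, the closest genes were Prpsap1 at 0.21 and Mrpl12 at 0.236, and Il18 ranked 11th. Both were lowest in TAI/IVIg mouse 1 and highest among irradiated mice in TAI/IVIg mouse 2. Without TAI/IVIg mouse 2, the difference from TAI turned to -0.10 for Il18 and -0.02 for Nlrp6, and without TAI/IVIg mouse 1 it was 0.70 and 0.81. Because their patterns were the most alike among the members, the 250 bases before their RefSeq starts are printed (GRCm38.p6, plus strand, chr9:50554450-50554699 and chr7:140920652-140920901). RefSeq promoters matched 7 of the 10 members, while Gsdmd, Gsdmc2 and Gsdmc4 had no entry and were not searched. Both strands of the 300 bases around each start were searched for an interferon-stimulated response element core (GAAANNGAAA), a gamma-activated site (TTCNNNGAA) and its STAT6 form (TTCNNNNGAA), which 3.4%, 8.3% and 7.0% of all promoters hold. The single match was in Il18, the STAT6 form at position -46, in capitals below. A match is a description of letters and not evidence of binding.
Il18 promoter: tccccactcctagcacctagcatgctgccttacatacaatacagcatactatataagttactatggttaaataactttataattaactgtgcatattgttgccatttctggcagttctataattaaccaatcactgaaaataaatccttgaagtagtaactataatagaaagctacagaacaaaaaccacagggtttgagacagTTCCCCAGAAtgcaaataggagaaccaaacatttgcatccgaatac
Nlrp6 promoter: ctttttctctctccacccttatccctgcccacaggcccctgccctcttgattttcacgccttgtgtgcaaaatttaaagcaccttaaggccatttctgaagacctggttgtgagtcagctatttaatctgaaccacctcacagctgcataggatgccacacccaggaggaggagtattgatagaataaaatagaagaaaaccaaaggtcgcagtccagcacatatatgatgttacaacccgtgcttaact

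Mlkl (chr8:111311797-111338177, minus strand), which ruptures the membrane in necroptosis, was lower in every irradiated mouse than in every control mouse. It stood at 63.7, 48.6 and 56.1 FPKM in control mice, 24.0, 29.0 and 11.0 in TAI mice, and 25.5, 9.58 and 5.23 in TAI/IVIg mice. In TAI/IVIg it fell by 2.24 on the log2 scale (SE 0.50, 4.72-fold, limma adjusted p = 0.00718). In TAI the difference was -1.45 (SE 0.50, limma adjusted p = 0.0516), which did not pass. With the replicate number as a block the same difference passed (limma adjusted p = 0.0274). It also passed when TAI/IVIg mouse 1 or mouse 3, which enter only through the shared spread, was left out (limma adjusted p = 0.0148 and 0.0299), and was -1.05 without TAI mouse 3. In 14 of the 21 alternatives run it was again not called, with limma adjusted p of up to 0.286. TAI/IVIg against TAI gave -0.79 (95% interval -1.93 to 0.35). The closest pattern was that of the chemokine gene Ccl8 (0.121), then of the interferon-inducible gene Phf11d (0.286). In the TAI/IVIg mice, Ccl8 was at 4.24, 0.691 and 0.350 FPKM and Irf7, a transcription factor of the interferon response, at 199.5, 96.5 and 61.2, in the same order of mice as Mlkl.

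Ripk3 (chr14:55784995-55788865, minus strand), the kinase upstream of MLKL, did not pass the test in any comparison. Its values were 48.5, 48.5 and 44.2 FPKM in control mice, 35.8, 41.4 and 16 in TAI mice, and 28.3, 23.8 and 29.2 in TAI/IVIg mice. Both irradiated groups lay below the control mice without overlap, and TAI mouse 3 was lowest of all. Among TAI mice that mouse was also lowest for Gsdmd, Casp1, Casp4, Nlrp6 and Mlkl, and highest for Il18. The difference of Ripk3 was -0.69 in TAI (95% interval -1.36 to -0.01, limma adjusted p = 0.102) and -0.78 in TAI/IVIg (95% interval -1.45 to -0.10, limma adjusted p = 0.0585), neither of which passed. Leaving out TAI mouse 2 brought the first to -0.94 (limma adjusted p = 0.0476) and the second to a limma adjusted p of 0.04335, and leaving out TAI mouse 3 brought them to -0.28 and to a limma adjusted p of 0.00363. TAI/IVIg against TAI gave -0.09 (95% interval -0.76 to 0.58), and turned to 0.11 with library medians set equal. The genes most like the remaining members in pattern, by the same root mean square difference, were Adgrg7 and Gm10226 for Ripk3 (0.208 for both), Aars and Myo7a for Casp1 (0.174 and 0.19), and Perm1 and Gm20470 for Casp4 (0.112 and 0.125).

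Counted over all 7 tested members, 1 was higher and 5 lower in every TAI mouse than in every control mouse, where 15.1% and 38.0% of all tested genes were. The same counts held in TAI/IVIg against control, beside 11.5% and 44.3%. The median difference of the 7 was -1.29 in TAI and -1.22 in TAI/IVIg, beside -0.24 and -0.39 for all tested genes, and 0.07 in TAI/IVIg against TAI, beside -0.13. Part of the excess of lower genes depended on scaling: with library medians set equal, 2159 genes were higher and 1823 lower in TAI, instead of 1150 and 3411, and 2880 and 1894 in TAI/IVIg, instead of 1183 and 4880. The calls of Gsdmd, Casp1, Il18 and Nlrp6 in both comparisons with control held under each of the 21 alternatives run, scalings and left-out mice included.

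**Figure D3:**
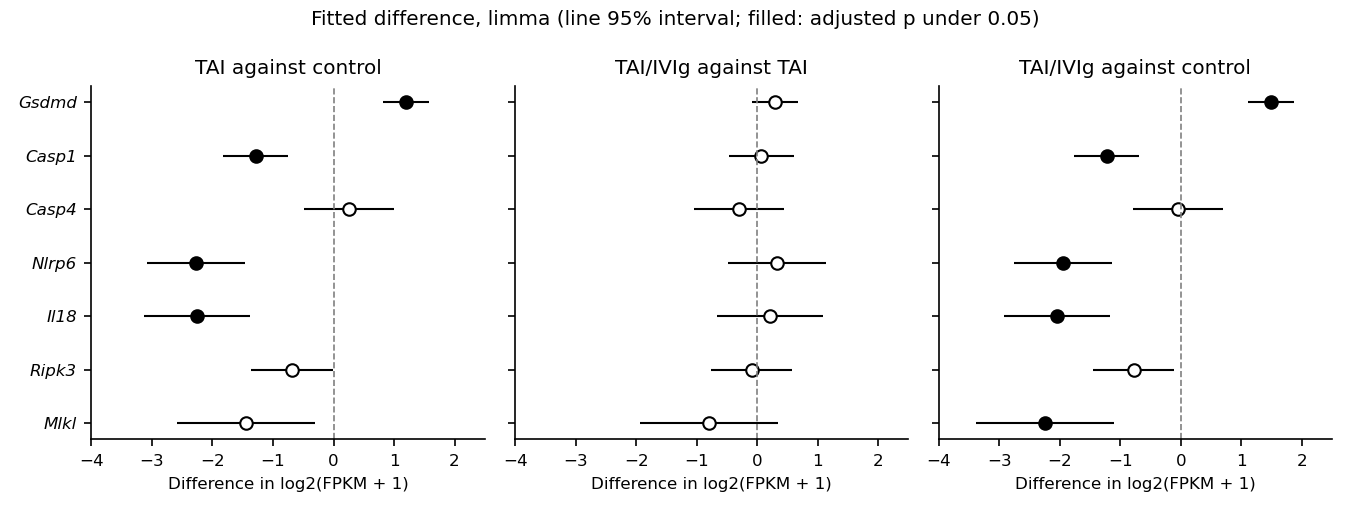
Fitted difference in log2(FPKM + 1) with its 95% interval for the 7 tested members in the 3 comparisons, filled points having an adjusted p under 0.05. Against control Gsdmd lies above 0 and Casp1, Nlrp6 and Il18 below it, while every interval of TAI/IVIg against TAI spans 0.

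The order of levels changed with irradiation. Casp1 is left out of this order, since the length behind its FPKM is uncertain. By mean FPKM, control mice ranked Il18 first (223.1 ± 62.1, SD, n = 3), then Gsdmd (139.9 ± 29.0) and Nlrp6 next (63.55 ± 4.49), and the ranges of Il18 and Gsdmd overlapped. In TAI mice Gsdmd stood first (317.4 ± 19.3), clear of Il18 (44.95 ± 7.40), and from Il18 down to Nlrp6 (12.4 ± 2.065) each member overlapped its neighbour in the order. TAI/IVIg mice had the same pair at the top, with Gsdmd at 390.2 ± 27.5 and Il18 at 57.7 ± 28.6, and again overlapping neighbours down to Mlkl (13.4 ± 10.7). Gsdmc2, Gsdmc3 and Gsdmc4 came last in every group.

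**Figure D4:**
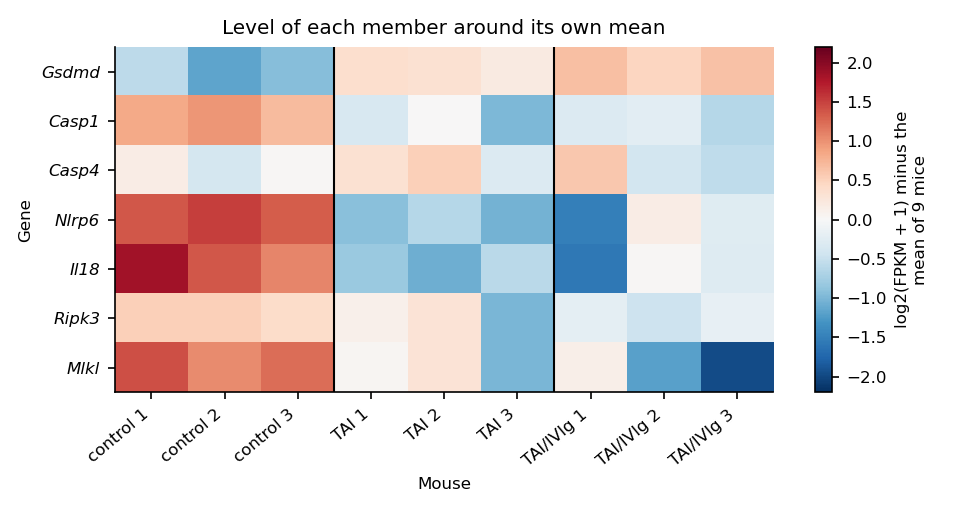
log2(FPKM + 1) of the 7 tested members in each mouse, minus the mean of that gene over the 9 mice (colour, red above and blue below). Il18 and Nlrp6 share their lowest value in TAI/IVIg mouse 1 (-1.58 and -1.50), where Mlkl (0.13) and Casp4 (0.60) are above their means.

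Beyond the members, 108 genes of the same pathways were listed by role, of which 102 are in the table and 82 were tested. In TAI 11 rose and 11 fell, and in TAI/IVIg 12 rose and 17 fell, with medians of -0.02 and -0.06. Over all tested genes 8.81% were called higher and 26.1% lower in TAI, and 9.06% and 37.4% in TAI/IVIg, and the counts by list below have the same background. Without TAI mouse 1 the counts in TAI were 5 and 4, and the count of lower genes was also 5 to 7 without control mouse 2 or 3 or TAI mouse 2 or 3, while in TAI/IVIg it was 11 without control mouse 3 or TAI/IVIg mouse 3. The split moved with scaling, to 23 higher and 3 lower in TAI and 31 higher and 6 lower in TAI/IVIg with library medians set equal. With medians equal, the falls of Aim2, Ppm1b, Pgam5 and Vps4a in TAI, of Tlr3, Irf7, Spi1 and Irf8 in TAI/IVIg, and of Il18rap and Fadd in both were no longer called (limma adjusted p = 0.0521 to 0.707). None was called in TAI/IVIg against TAI, where an unadjusted p below 0.05 was reached by 2 with a higher level and 6 with a lower one.

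Of 13 tested inflammasome sensors and adaptors, 3 rose and 4 fell in TAI, and 4 rose and 4 fell in TAI/IVIg. Pycard, the adaptor that couples NLRP6 to caspase-1, went from 17.5, 24.9 and 26.3 FPKM in control mice to 1.84, 2.38 and 1.83 in TAI mice and 0.761, 2.60 and 2.13 in TAI/IVIg mice. Its fall of -2.97 and -3.12 (limma adjusted p = 0.000351 and 0.00016) exceeds the fitted fall of each tested member (at most 2.27). Nlrp9b, a sensor of the intestinal epithelium, rose by 1.99 and 2.32 (limma adjusted p = 0.000854 and 0.000303), from 9.21 to 15.4 FPKM in control to 47.3 to 50.7 in TAI and 44.4 to 76.9 in TAI/IVIg mice. The NAIP proteins bind bacterial flagellin and secretion needles and signal through NLRC4. Naip6 fell by 1.00 and 1.24, Naip2 rose by 0.53 and 0.59, Naip5 by 0.59 in TAI/IVIg, and Nlrc4 by 0.51 and 0.52. Aim2, a sensor of cytosolic DNA, fell by 0.96 and 1.61. In TAI the call of Aim2 was lost without control mouse 3 or any 1 TAI mouse (limma adjusted p = 0.0733 to 0.1099) and with the replicate number as a block (0.06164), that of Naip2 without control mouse 1 or 3 or TAI mouse 1 or 2 (0.06076 to 0.1232), and that of Nlrc4 without control mouse 3 or TAI mouse 1 or 2 (0.05001 to 0.05552). In TAI/IVIg the call of Naip2 was lost without control mouse 3 (limma adjusted p = 0.06353).

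Of 16 tested genes of the IL-1 family and its signalling, 3 rose and 2 fell in TAI, and 3 rose and 5 fell in TAI/IVIg. Il18bp, a secreted inhibitor that binds IL-18, fell with its ligand, from 37.3 to 55.4 FPKM in control to 10.02 to 14.29 in TAI and 5.60 to 13.9 in TAI/IVIg mice, by 1.79 and 2.26 (limma adjusted p = 0.00285 and 0.000786). Il18rap, a chain of the IL-18 receptor, was at 1.05 to 1.44 FPKM in control mice and fell by 0.58 and 0.79. Its 3 control mice met the filter of an FPKM of 1 by themselves, close to the floor. The filter therefore favoured a fall of this gene, which is among the falls counted above. The gene Il33, an alarmin of the same family, rose by 1.69 and 1.40, and stood at 15.2 FPKM in TAI mouse 3 against 39.96 and 64.49 in TAI mice 1 and 2. The receptor-associated kinase genes Irak2 and Irak4 rose, by 0.79 and 0.37 in TAI and by 0.95 and 0.44 in TAI/IVIg, whereas Irak1 fell by 1.13 in TAI/IVIg. In TAI the call of Il33 was lost without TAI mouse 1 (limma adjusted p = 0.0569), that of Il18rap without TAI mouse 1 or 3 (0.06369 for both), and that of Irak4 without control mouse 2 or 3 or TAI mouse 1 or 2 (0.06306 to 0.1233). In TAI/IVIg the call of Il33 was lost without control mouse 2 or 3 or TAI/IVIg mouse 3 (limma adjusted p = 0.0568 to 0.0686).

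Among 20 tested partners and checks of necroptosis, 2 rose and 3 fell in TAI, and 2 rose and 4 fell in TAI/IVIg. The TNF receptor gene Tnfrsf1a rose by 0.82 and 0.83, and Ripk1, the kinase that engages RIPK3, by 0.62 and 0.55. Fadd, an adaptor for caspase-8, fell by 0.63 and 0.65, Pgam5, a mitochondrial phosphatase, by 0.62 and 0.98, and Ppm1b, a phosphatase of RIPK3, by 0.73 in TAI. Tlr3, a receptor for double-stranded RNA, fell by 1.02 in TAI/IVIg, though its values overlapped those of control mice. In TAI the calls of Tnfrsf1a and Ripk1 were lost without TAI mouse 1 (limma adjusted p = 0.0519 and 0.0677), that of Fadd without control mouse 2 or 3 or any TAI mouse (0.05095 to 0.0682), and that of Pgam5 without control mouse 2 or 3 or TAI mouse 1 or 3 (0.05585 to 0.0686). In TAI/IVIg the call of Ripk1 was lost without control mouse 3 (limma adjusted p = 0.0536), and that of Tlr3 without any of control mice 1 to 3, TAI mice 1 and 2 or TAI/IVIg mice 2 and 3 (0.0539 to 0.146).

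Gsdme, a gasdermin with pore-forming activity of its own, was the one other gasdermin tested and was at 6.46 to 9.705 FPKM in control, 5.27 to 10.1 in TAI and 4.44 to 8.24 in TAI/IVIg mice, a difference of -0.06 in TAI that turned to 0.23 with library medians set equal. Among 8 genes of membrane rupture and repair, Vps4a, of the ESCRT machinery that removes damaged membrane, fell by 0.37 in TAI, a call lost without any 1 control mouse, TAI mouse 1 or 2, or TAI/IVIg mouse 3 (limma adjusted p = 0.0511 to 0.125). In TAI/IVIg against control Vps4a was at -0.30 and Chmp2a, another ESCRT gene, at -0.28, with limma adjusted p of 0.0575 and 0.0833.

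Of 15 transcription factors known to act on these genes, Irf1 and Stat3 rose in both comparisons with control, by 0.99 and 0.85 in TAI and by 0.80 and 0.78 in TAI/IVIg. Irf7, Spi1 and Irf8 fell in TAI/IVIg, by 1.33, 1.01 and 0.84. The call of Irf1 in TAI/IVIg was lost without control mouse 2 (limma adjusted p = 0.0598), that of Irf8 without control mouse 3 or TAI/IVIg mouse 3 (0.0621 and 0.0568), and that of Spi1 without control mouse 1 or 3, TAI mouse 3 or TAI/IVIg mouse 3 (0.052 to 0.122). For the type 2 axis that is known to induce gasdermin C, the receptor gene Il4ra rose by 1.27 and 0.86, from 14.0 to 22.0 FPKM in control to 35.6 to 50.9 in TAI and 29.8 to 42.1 in TAI/IVIg mice, while its ligand genes Il4 and Il13 stayed under 1 FPKM in every mouse. Of the 12 genes on that list 2 were tested.

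**Figure D5:**
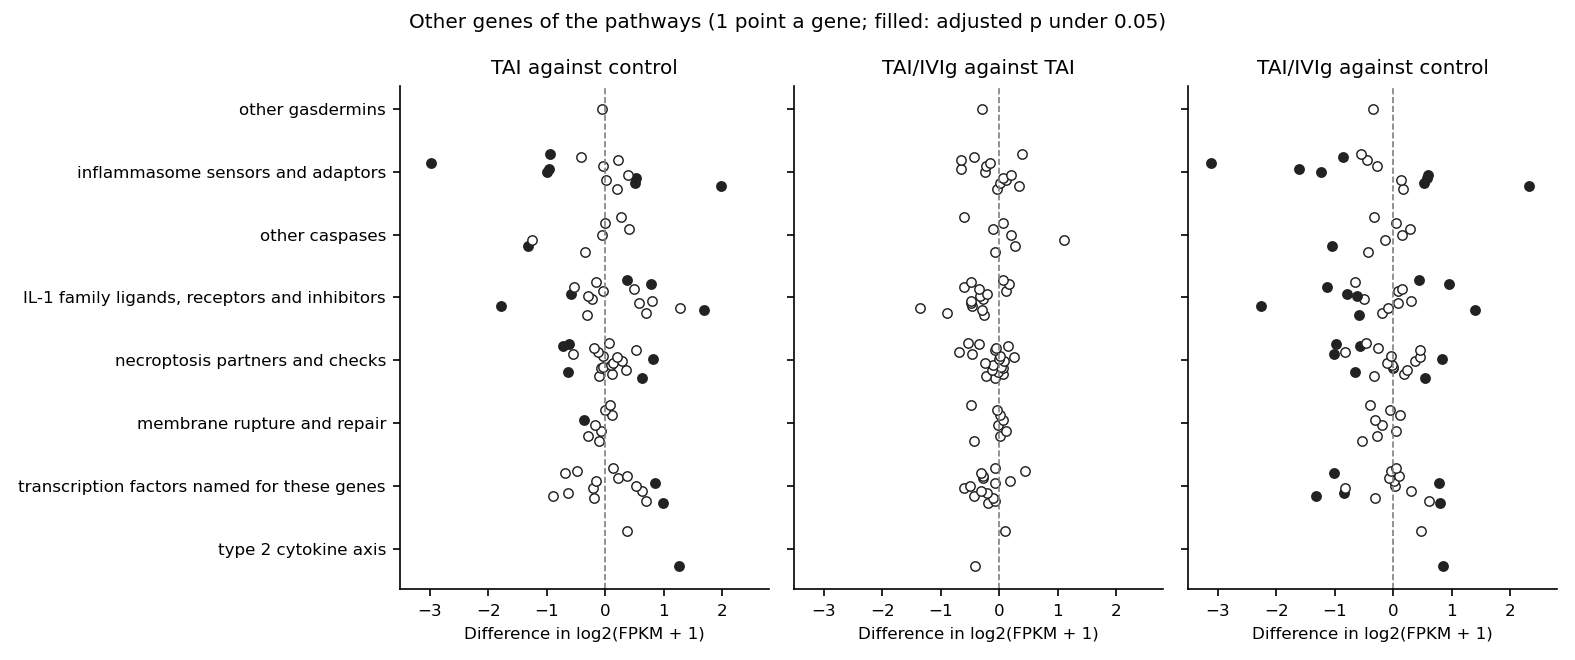
Fitted difference in log2(FPKM + 1) of the 82 other pathway genes tested, a point per gene, by list (rows) and comparison (panels), filled where the adjusted p is under 0.05. Pycard at -2.97 and -3.12 is the point farthest left in the panels against control, and the middle panel holds no filled point.

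For TAI/IVIg against TAI, the lists held no call, and the genes of smallest p are given as values. They were Nek7, an activator of NLRP3, at -0.66 and Aim2 at -0.65, Casp12 at -0.60 and Casp6 at 1.10, and Il1rn, the IL-1 receptor antagonist, at -1.36 and Irak1 at -0.60. Further values were Pgam5 at -0.35 and Tnf at -0.69, the ceramide-forming enzyme gene Smpd1 at -0.49 and Ninj1, whose product ruptures membranes, at -0.42, Gata4 at 0.44, and Il4ra at -0.41 and Il13ra1 at 0.10. Casp6 shows the spread within the group, at 3.09 FPKM in TAI/IVIg mouse 1 against 13.7 and 11.55 in mice 2 and 3, with 1.89 to 5.19 in TAI mice. Over all tested genes limma made no call here (smallest adjusted p = 0.353), while 214 genes with higher and 1466 with lower levels had an unadjusted p below 0.05, and with no filter or with the replicate block limma called 4 and 3 genes lower. None of 10 markers of fibroblasts, muscle and endothelium was called between these groups, although their summed level did not overlap. It was 453.9 to 598.2 FPKM in TAI mice and 101.7 to 419.4 in TAI/IVIg mice. The muscle gene Acta2 held the largest part, with means of 250.6 and 124.4 FPKM. Against control, 1 of the 10 markers was called lower in TAI and 4 in TAI/IVIg. The sum was lowest in TAI/IVIg mouse 3, which was also lowest for Mlkl, Casp4 and Casp1 among TAI/IVIg mice. Ripk3 was highest in that mouse (29.24 FPKM), Gsdmd was lowest in mouse 2, and Il18 and Nlrp6 were lowest in mouse 1. The part of the fibroblast, muscle and endothelial markers in these values was not tested.

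Markers of the remaining cell types are given for the same groups, control then TAI then TAI/IVIg. Paneth and goblet cell genes summed to 1179 to 2572, 2128 to 3585 and 715.9 to 1882 FPKM, with 2 of 7 higher in TAI and 2 lower in TAI/IVIg. Genes of T cells and intraepithelial lymphocytes summed to 45.5 to 85.9, 43.2 to 80.35 and 49.4 to 81.65 FPKM. Of 8 tested, none was called in TAI and 1 was called lower in TAI/IVIg. The genes of this list did not move together. Mean Gzma was 22.55, 32.65 and 39.72 FPKM and mean Trac 10.93, 3.22 and 2.295, both with overlapping mice. Neutrophil genes were low, at 3.52 to 15.8, 3.78 to 11.8 and 1.575 to 3.43 FPKM in sum, and of 3 tested 1 was called higher in TAI and 2 lower in TAI/IVIg. Leaving out the mouse of each group that was highest in B cell genes, an alternative chosen after seeing the data, kept the calls of Gsdmd, Casp1, Nlrp6 and Il18 in both comparisons with control and turned Casp1 and Nlrp6 in TAI/IVIg against TAI to -0.28 and -0.11.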

How the data were processed

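Jejunal RNA of 9 mice, 3 per group, was measured by RNA sequencing. The authors deposited 1 table of FPKM values per gene. The submitters' processing notes name FastQC, Trimmomatic, STAR, featureCounts and DESeq2 and the builds mm10 and GRCm38, and how the FPKM were derived from the counts is not given in the sources used here. The members and the lists of pathway and marker genes were chosen with earlier results of these data known. Groups were taken from the sample labels, and all libraries carry the same batch label.

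Values were analysed as log2(FPKM + 1), for genes that reached an FPKM of 1 in 3 or more mice, with limma 3.58.1 in R 4.3.3 (all 9 mice in 1 fit, trended empirical Bayes), and p-values were adjusted by Benjamini and Hochberg over the 13056 genes tested. A call is an adjusted p under 0.05. An exact permutation test of 3 against 3 mice cannot go below 0.1 and was not used. FPKM values were whole multiples of a step for 100.0% of genes (tolerance 0.0001 of a read, with a common factor set for 490 genes), which gave whole reads and library totals. limma voom on these reads was an alternative. Counting intervals are exact binomial ones at the 95% level. The fit was tested on simulated counts with the same dispersion for every gene and few changed genes. That setting is simpler than these data, so it does not show how scaling or differences between mice act here.

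All members are named. From each pathway list up to 3 called genes per direction and comparison with the largest change are named, or up to 2 with the smallest p where none was called, and for each tested member the genes of most like pattern were found by the root mean square difference of centred log2 levels. Deviations from the group means correlated between same-numbered control and TAI mice by 0.271, 0.241 and 0.308 (numbers 1 to 3), each above 0.1. The fit behind the reported calls had no block for the number, and the fit with it was an alternative, whose value is given where it changes a call in TAI against control. The correlations were not all above 0.1 for TAI/IVIg against TAI (0.201, 0.041 and -0.067) or against control (0.185, -0.136 and -0.296). Coding sequences are from GENCODE M21 and promoters from RefSeq. Protein sequences were not used here. Some genes that these rules name are not reported here.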

Additional observations from a re-analysis of the deposited data

How the results depend on the processing

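Gsdmd, Casp1, Il18 and Nlrp6 against control, in both irradiated groups, and Mlkl in TAI/IVIg kept direction and call under each of 21 alternatives. Members lower in TAI numbered 3 in the report, 5 with no filter, 6 with voom on genes of at least 10 reads, and 3 to 4 with a mouse left out. With library medians set equal, quantile normalization and voom with median-ratio sizes in turn, pathway genes higher in TAI were 23, 23 and 22 and lower 3, 6 and 4, and in TAI/IVIg higher 31, 25 and 29 and lower 6, 8 and 7. Leaving out 1 mouse gave 5 to 15 higher and 4 to 14 lower in TAI, and 10 to 14 higher and 11 to 20 lower in TAI/IVIg. Without the 3 mice highest in B cell genes (control 3, TAI 3, TAI/IVIg 2; chosen, like the voom minimum of 10 reads, after seeing the data), pathway counts were 7 higher and 3 lower in TAI and 7 and 10 in TAI/IVIg.

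Over all genes, those higher in TAI were 2159, 1994 and 1978 under the 3 scalings, 707 without TAI mouse 1 and 572 without the B cell mice. Those lower in TAI were 2231 at a mean FPKM of at least 5, 1823 with medians equal, 1913 with voom median-ratio sizes, 1956 and 2081 without control mouse 2 or 3, 1643 without TAI mouse 1 and 1188 without the B cell mice. In TAI/IVIg against control, 2880, 2407 and 2419 were higher and 1894, 2253 and 2379 lower under the scalings, and 2465 lower at a mean of at least 5. In TAI/IVIg against TAI, 4 were lower with no filter and 3 with the replicate block. With the replicate block, members were 1 higher and 4 lower in TAI (Mlkl added) and 1 and 4 in TAI/IVIg, and pathway genes 12 and 11, and 15 and 16. The block ended the calls of Aim2 in TAI (adjusted p = 0.06164) and Spi1 in TAI/IVIg (0.06646) and changed no other call of a named gene than Mlkl.

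Differences that were not called changed sign as follows, and the cause was not tested. Under the scalings, in the same order, Gsdme in TAI was 0.23, 0.23 and 0.22 and in TAI/IVIg against control 0.14, 0.11 and 0.074, and Casp4 in TAI/IVIg against control was 0.44, 0.26 and 0.42. With medians equal and voom median-ratio sizes, Ripk3 in TAI/IVIg against TAI was 0.11 and 0.092, and against control Vps4a was 0.19 and 0.16 and Chmp2a 0.21 and 0.20. Without the B cell mice, Casp1 and Nlrp6 in TAI/IVIg against TAI were -0.28 and -0.11 and Casp4 against control 0.13. Leaving out 1 mouse, Gsdme in TAI ranged from -0.25 to 0.16, and in TAI/IVIg against TAI the range was -0.20 to 0.29 for Casp1, -0.10 to 0.70 for Il18, -0.022 to 0.81 for Nlrp6, -0.49 to 0.16 for Ripk3 and -0.046 to 0.20 for Il13ra1, and in TAI/IVIg against control -0.41 to 0.17 for Casp4.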
